A study of Homo sapiens with 9 samples.

Results

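The genes described here are 41 human genes that encode DNA polymerases, the factors that start and protect replication forks, and the enzymes that supply DNA precursors, 41 of 58721 genes counted. They were chosen by name and fall into 5 roles: 10 genes of origin firing, 9 of the replicative polymerases and primase, 7 of the sliding clamp, its loader and Okazaki fragment joining, 10 of fork protection, single-strand binding and chromatin assembly, and 5 of nucleotide supply. All 41 were matched by their Ensembl identifiers and all 41 were expressed above the filter on low counts. They were measured by RNA sequencing of total RNA from H1299, a human cell line long established from a non-small cell lung carcinoma. The control group was kept in serum free medium, the siCLOCK group is labelled with small interfering RNA against the circadian transcription factor CLOCK, and the melatonin group received 0.1 mM of this pineal hormone. Each group had 3 libraries. The labels describe no non-targeting siRNA group, no vehicle group and no time of treatment, and they do not say whether the siCLOCK and melatonin cells were also in serum free medium. Nothing states that replicates came from separate cultures, so p-values here measure only the spread between these samples, which may be technical.

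Replication begins where the origin recognition complex has loaded the MCM helicase. The kinase CDC7 with its partner DBF4 then lets CDC45 and the GINS complex join the helicase, which starts to unwind DNA. DNA polymerase alpha with primase lays primers, polymerase epsilon extends the leading strand and polymerase delta the lagging strand, both held by the PCNA clamp that the RFC complex loads, and FEN1 and LIG1 trim and join the Okazaki fragments. RPA coats single-stranded DNA, TIMELESS, TIPIN and CLSPN hold the fork together, and CAF-1 places histones on the new DNA. Ribonucleotide reductase, thymidylate synthase, thymidine kinase and dUTPase keep the DNA precursors in supply. Many of these genes are transcribed mainly around the start of S phase under E2F transcription factors.

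The library with the fewest gene counts was melatonin replicate 1 (15384539) and that with the most siCLOCK replicate 2 (19192962), and the 41 genes together took between 0.222% (95% Wilson interval 0.22% to 0.225%, melatonin replicate 1) and 0.306% (0.303% to 0.308%, control replicate 2) of them. These intervals cover counting error only. The share of unmapped reads and that of processed pseudogenes, intronless gene copies, split the libraries into 2 sets across the labelled groups. In the 3 controls and siCLOCK replicates 1 and 2, between 1.22% and 1.36% of reads were unmapped and processed pseudogenes took 0.204% to 0.218% of gene counts. The 3 melatonin libraries and the library labelled siCLOCK replicate 3 had 2.24% to 2.34% of reads unmapped and 0.364% to 0.378% of gene counts in processed pseudogenes. CLOCK itself stood at 39.0, 38.6 and 44.4 CPM (a gene's count scaled to a common library total) in control, at 20.9, 32.02 and 38.1 CPM in siCLOCK, and at 40.9, 41.6 and 39.0 CPM in melatonin. The library labelled siCLOCK replicate 3 was thus at 93.8% of the control mean and did not show the reduction its label implies. Of the markers of the line, the intermediate filament genes VIM (1853 CPM ± 149.5, SD, n = 3, in control), KRT18 and KRT8 and the cadherin gene CDH2 were above 1 CPM, while KRT19, EPCAM and CDH1 were below it. Summed leukocyte markers reached at most 0.472 CPM in any library, erythroid markers 0.0561, lung epithelial markers 1.17, fibroblast markers 3.66 and endothelial markers 5.37. The summed H1299 markers were at 2267 to 2603 CPM in control, 2323 to 2557 in siCLOCK and 1908 to 1969 in melatonin, mostly through VIM, and their part in the results below was not tested.

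Per kilobase of the longest principal transcript, the control levels of the 41 genes spanned a wide range. PCNA, the clamp, was highest at 141 ± 8.12 CPM per kilobase (SD, n = 3), followed by POLD2, a regulatory subunit of polymerase delta, at 107 ± 7.94, and RFC2, a clamp loader subunit, at 56.4 ± 4.77. The lowest levels per kilobase were those of GINS4 at 5.28 ± 0.327, ATAD5, which unloads PCNA, at 2.92 ± 0.2503, and POLA2, the regulatory subunit of polymerase alpha, at 2.496 ± 0.207. Between neighbours in this order, the control libraries overlapped in 25 of 40 pairs, so most neighbouring ranks did not differ beyond their spread. Levels per kilobase were not corrected for reads left uncounted where exons overlap another gene. A single such gene covers 35.1% of the exon bases of POLA2, 21.2% of those of GINS4 and 4.31% of those of ATAD5. The effect of this on the order was not tested. RRM2, the cell cycle regulated small subunit of ribonucleotide reductase, stood at 49.1 ± 1.58 CPM per kilobase and its large subunit RRM1 at 36.4 ± 1.76.

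Promoter sequences were available for 36 of the 41 genes, in RefSeq windows on GRCh38.p14. The windows run from 250 bases before to 50 bases after each gene's start in RefSeq. That start can lie inside the gene coordinates given below, which come from another annotation, as it does for GINS2 and TYMS. The letters TTTCCCGC, TTTCGCGC, TTTGCCGC and TTTGGCGC, the core to which E2F factors are known to bind, were searched on both strands. At least 1 of them stood in 12 of these 36 windows (33.3%), in 3.33% of all 27305 RefSeq promoter windows and in 5.29% of the 10942 windows of genes tested here. The 30 bases around each match are shown because they place the letters shared by genes of all 5 roles. Each line is printed 5′ to 3′ on the strand on which the letters begin with TTT, given in parentheses, and capitals mark the E2F letters.
GINS1, chr20:25407667-25407696 (-): ccgctccgcgcTTTGGCGCcgaacaaagct
GINS2, chr16:85688967-85688996 (+): gcggccgccgtTTTCCCGCcacggcgagag
GINS3, chr16:58392455-58392484 (-): attgaaactcgTTTCCCGCgcccggggacg
POLA1, chrX:24693770-24693799 (-): gcggacgcgcgTTTGGCGCcctgtgatgac
POLA2, chr11:65261898-65261927 (+): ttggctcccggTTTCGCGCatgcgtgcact
POLE, chr12:132687342-132687371 (+): caggggagaaaTTTGGCGCgctcccaccca
POLE2, chr14:49688201-49688230 (+): catatttgcgaTTTGGCGCcaccgccgcag
PCNA, chr20:5126663-5126692 (+): aacgcacgcctTTTCCCGCccctgacgctg
RFC3, chr13:33818083-33818112 (-): cagagacaagtTTTCCCGCgagctccaaat
LIG1, chr19:48170440-48170469 (-): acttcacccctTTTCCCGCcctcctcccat
CLSPN, chr1:35769965-35769994 (+): gctgttcttgcTTTCCCGCccagccagagt
TYMS, chr18:657603-657632 (-): tccgcgcgcctTTTCCCGCggccgtcccgc
Read along the gene, the match lay wholly before the RefSeq start in 8 of the 12 genes, beginning as far as 137 bases before it in POLA1. In GINS3, POLE2 and CLSPN it began 5 bases before the start and ran across it, and in GINS1 it began 5 bases after it. In 3 of the 12 it overlapped another motif searched. The CCAAT box (letters CCAAT) was in 52.8% of the 36 windows and in 36.5% of those of genes tested, the GC box (GGGCGG) in 72.2% and 69.9%, and the CHR letters (TTTGAA or TTCGAA) in 5.56% and 10.9%. These matches describe the letters in the windows and are not evidence of binding in these cells.

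The first question was how the replication genes stood in melatonin against control. All 41 genes had a negative log2 fold change, 39 fell and none rose by edgeR's quasi-likelihood test at a Benjamini-Hochberg adjusted p under 0.05, where 12.1% of all 16441 genes tested fell and 11% rose. The median log2 fold change over the 41 genes was -0.48, from -0.73 (GINS2) to -0.18 (CDC7), against 0.01 over all genes tested. In 40 of 41 genes every melatonin library lay below every control library, as it did in 21.4% of all genes, and in none did they lie above them, as in 21.9% of all genes. The exception was CDC7. RNA from whole cultures does not tell fewer cells in S phase from less of these RNAs per cell.

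**Figure D1:**
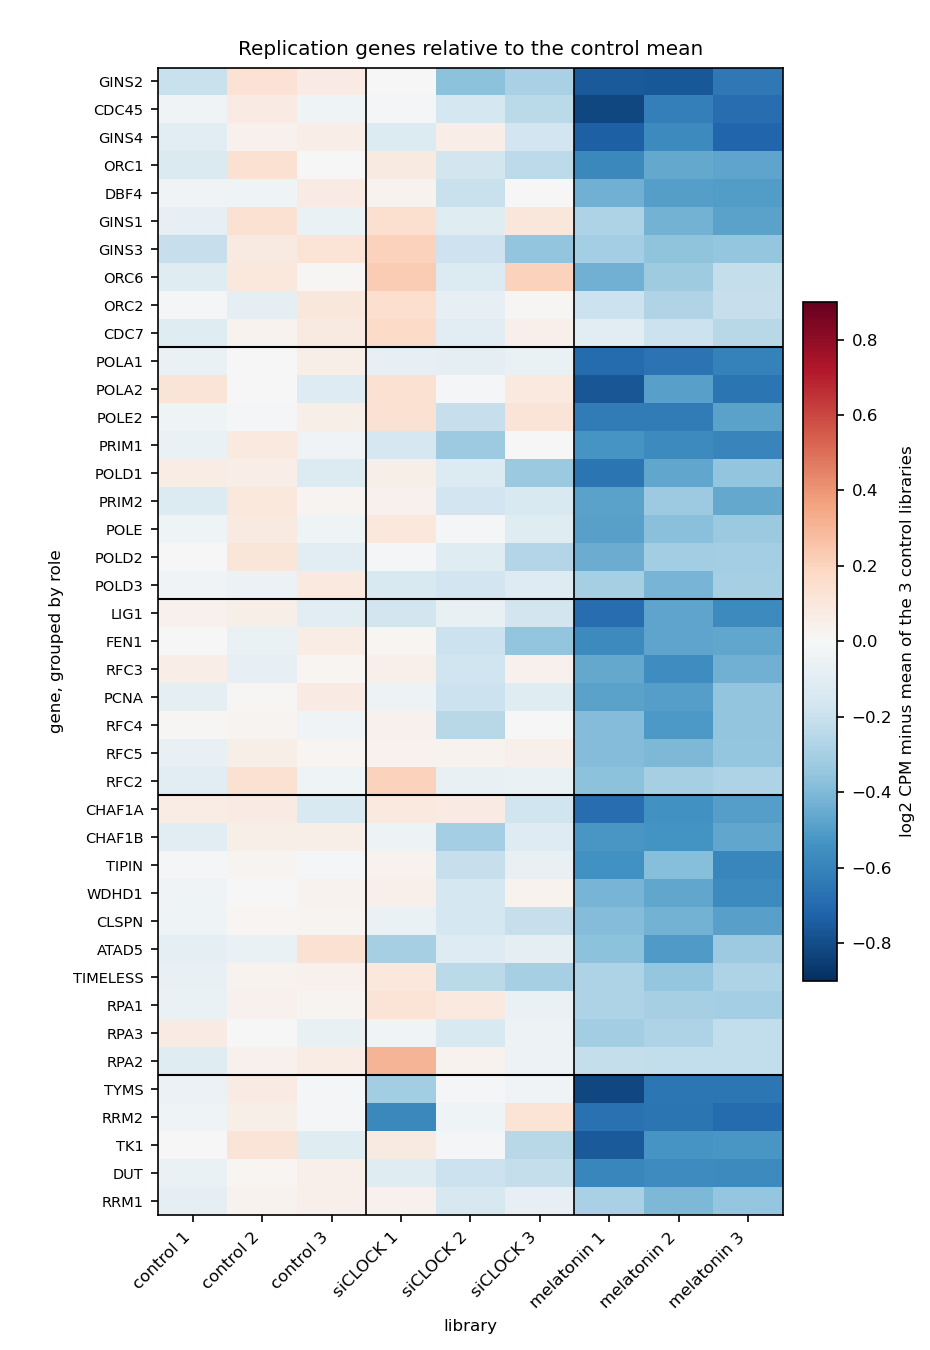
Level of each of the 41 genes in each library as log2 CPM minus the mean of the 3 control libraries (blue, lower; red, higher), with genes in rows grouped by role and the 9 libraries in columns. The 3 melatonin columns are blue in every row, and single siCLOCK cells stand out, such as RRM2 in replicate 1.

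All control libraries were in the first library set and all melatonin libraries in the second, so in those 6 libraries the set and the treatment cannot be told apart. The set can be separated from melatonin only through the library labelled siCLOCK replicate 3. Within its set, melatonin against that library alone gave 23 of 41 genes lower and none higher, where 3.8% of all genes were lower, with a median of -0.37 over the 41 genes and 40 of them negative. This comparison takes the spread from all groups and assumes that the lone library varies like the others. The same library against control gave a median of -0.08 over the 41 genes, with 30 of them negative. With a term for the set in the model, 16 of the 41 genes were lower in melatonin than in control, where 2.96% of all genes were, with a median of -0.45. The term is estimated from 1 library, the one labelled siCLOCK replicate 3, against siCLOCK replicates 1 and 2, and so absorbs any other way in which they differ. Without that library, and with no set term, 40 of the 41 genes were lower, where 14.6% of all genes were.

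Origin firing genes fell in 9 of 10 cases, with a median log2 fold change of -0.44, where 12.1% of all genes fell. With the set term 3 of the 10 were lower, where 2.96% of all genes were. GINS2 (ENSG00000131153.8, chromosome 16, 85676198 to 85690073 on GRCh38), a subunit of the GINS complex, stood at 71.6, 90.1 and 86.5 CPM in control, at 82.1, 63.7 and 67.1 CPM in siCLOCK and at 48.7, 48.4 and 52.6 CPM in melatonin. All 3 melatonin libraries lay below all other libraries, at 60.3% of control by the fitted fold change (log2 fold change -0.73, SE 0.10, edgeR adjusted p = 2.77e-05). CDC45 (ENSG00000093009.9, chromosome 22, 19479459 to 19520612), which joins the helicase together with GINS, stood at 63.1, 67.9 and 62.7 CPM in control, 63.7, 57.8 and 54.6 CPM in siCLOCK and 36.6, 42.1 and 40.01 CPM in melatonin. It had the smallest p of the role, and its melatonin libraries were again below the other 6 (log2 fold change -0.70, SE 0.08, edgeR adjusted p = 3.78e-06). GINS4 fell to a similar extent (-0.68, SE 0.10), while GINS1 (-0.40, SE 0.10) and GINS3 (-0.35, SE 0.12) were nearer to 0. The GINS proteins form 1 complex, and their 4 genes spanned -0.73 to -0.35 on the log2 scale. GINS3 had an adjusted p of 0.0468 by edgeR, and with the set term its log2 fold change was 0.04. The exons of GINS4 share 21.2% of their bases with the antisense gene AC009630.2, so reads in that stretch are not assigned to either gene in counts made without strand.

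The origin recognition complex was lower in those of its subunits that are among the 41 genes. ORC1, whose protein is known to vary over the cell cycle, fell by 0.51 on the log2 scale (SE 0.09), ORC6 by 0.32 (SE 0.09) and ORC2 by 0.23 (SE 0.07). DBF4, the regulatory subunit that activates CDC7, stood at 98.9, 98.4 and 106 CPM in control and 75.03, 71.7 and 71.3 CPM in melatonin (log2 fold change -0.48, SE 0.07, edgeR adjusted p = 9.54e-05). CDC7, the kinase itself, stood at 52.9, 58.5 and 60.5 CPM in control, 64.5, 53.6 and 59.1 CPM in siCLOCK and 53.7, 50.1 and 48.1 CPM in melatonin. Melatonin replicate 1 was above control replicate 1, and CDC7 did not pass (log2 fold change -0.18, SE 0.08, edgeR adjusted p = 0.114), except at an adjusted p of 0.027 in the fit of the 6 libraries alone. The kinase and its activator thus differed in whether they passed, and the difference between them was not tested.

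Replicative polymerase and primase genes fell in 9 of 9 cases, with a median of -0.49, where 12.1% of all genes fell. With the set term 3 of the 9 were lower (median -0.38), where 2.96% of all genes were. POLA1 (ENSG00000101868.10, chromosome X, 24693919 to 24996986), the catalytic subunit of polymerase alpha, stood at 106, 111 and 115 CPM in control, 105, 104 and 106 CPM in siCLOCK and 68.3, 69.95 and 72.7 CPM in melatonin. The 3 melatonin libraries were tightly grouped at 63.5% of control (log2 fold change -0.66, SE 0.06, edgeR adjusted p = 7.71e-07), and the E2F letters of its promoter lie farthest from the start among those shown. PRIM1 (ENSG00000198056.13, chromosome 12, 56731596 to 56752373), the catalytic primase subunit, stood at 21.2, 23.6 and 21.6 CPM in control, 19.9, 17.6 and 22.1 CPM in siCLOCK and 15.3, 14.8 and 14.6 CPM in melatonin. It too was lower in every melatonin library than in any other (log2 fold change -0.57, SE 0.09, edgeR adjusted p = 0.000277), and the other primase subunit, PRIM2, fell by 0.42 (SE 0.09). POLA2 was the least abundant of the 41 genes per kilobase and stood at 10.1, 9.32 and 8.58 CPM in control, 10.3, 9.24 and 9.92 CPM in siCLOCK and 5.42, 6.61 and 5.86 CPM in melatonin (log2 fold change -0.64, SE 0.12, edgeR adjusted p = 0.000675). Its exons share 35.1% of their bases with AP000944.2, an annotated protein-coding gene on the same strand, and reads in that stretch are counted for neither gene.

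The measured subunits of polymerases epsilon and delta that are among the 41 genes fell as well. POLE2, a regulatory subunit of polymerase epsilon, fell by 0.58 on the log2 scale (SE 0.10) and the catalytic subunit POLE by 0.40 (SE 0.07). POLD1, the catalytic subunit of polymerase delta, stood at 50.9, 50.7 and 44.7 CPM in control and 30.8, 35.1 and 37.99 CPM in melatonin and fell by 0.49 (SE 0.10). POLD2 fell by 0.35 (SE 0.07) and POLD3 by 0.34 (SE 0.07), the smallest falls of the role. The 3 polymerase alpha and primase genes other than PRIM2 were between -0.66 and -0.57, and the 3 delta subunits between -0.49 and -0.34. Within the second library set, melatonin was also set against the library labelled siCLOCK replicate 3 alone. There the log2 fold changes were -0.16 for POLD1, -0.10 for POLD2, -0.23 for POLD3, -0.29 for POLE and -0.70 for POLE2.

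Clamp, clamp loader and Okazaki fragment joining genes fell in 7 of 7 cases, with a median of -0.44, where 12.1% of all genes fell. With the set term 5 of the 7 were lower, where 2.96% of all genes were. LIG1 (ENSG00000105486.13, chromosome 19, 48115445 to 48170603), the ligase that seals Okazaki fragments, stood at 43.8, 44.4 and 40.1 CPM in control, 38.1, 40.7 and 37.99 CPM in siCLOCK and 26.5, 30.7 and 28.7 CPM in melatonin (log2 fold change -0.58, SE 0.08, edgeR adjusted p = 4.3e-05). PCNA (ENSG00000132646.10, chromosome 20, 5114953 to 5126626), the clamp, stood at 180.3, 193 and 202 CPM in control, 186, 167 and 177 CPM in siCLOCK and 137, 136 and 149.9 CPM in melatonin (log2 fold change -0.44, SE 0.07, edgeR adjusted p = 0.000116). For both genes the melatonin libraries lay below all 6 others, at 67.1% and 73.5% of control. FEN1, the flap endonuclease, stood at 60.9, 58.7 and 63.95 CPM in control, 61.8, 53.6 and 47.9 CPM in siCLOCK and 41.05, 43.9 and 44.3 CPM in melatonin (log2 fold change -0.51, SE 0.08, edgeR adjusted p = 0.000292). The control and melatonin libraries did not overlap. The siCLOCK libraries reached from the control range down to near the melatonin range, lowest in the library labelled siCLOCK replicate 3. For FEN1 that library had a log2 fold change of -0.36 against control, and melatonin against it had -0.16. The 4 clamp loader genes fell together: RFC3 by 0.48 (SE 0.08), RFC4 by 0.42 (SE 0.08), RFC5 by 0.38 (SE 0.07) and RFC2 by 0.32 (SE 0.08).

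Of the fork protection, single-strand binding and chromatin assembly genes 9 of 10 fell, with a median of -0.42, where 12.1% of all genes fell. With the set term 2 of the 10 were lower (median -0.33), where 2.96% of all genes were. CHAF1A (ENSG00000167670.15, chromosome 19, 4402662 to 4445018), the large subunit of the histone chaperone CAF-1, stood at 92.3, 92.6 and 80.2 CPM in control, 93.6, 92.8 and 77.9 CPM in siCLOCK and 54.7, 60.3 and 62.6 CPM in melatonin (log2 fold change -0.58, SE 0.08, edgeR adjusted p = 7.38e-05). CHAF1B (ENSG00000159259.7, chromosome 21, 36385378 to 36419015), its middle subunit, stood at 42.2, 47.00 and 47.01 CPM in control, 44.03, 36.6 and 41.9 CPM in siCLOCK and 31.6, 31.3 and 32.7 CPM in melatonin (log2 fold change -0.51, SE 0.08, edgeR adjusted p = 0.000192). Both CAF-1 subunits were lower in each melatonin library than in each of the other 6. TIPIN (-0.50, SE 0.09), WDHD1, which ties polymerase alpha to the helicase (-0.49, SE 0.08), CLSPN, which relays checkpoint signals at the fork (-0.44, SE 0.07), and ATAD5 (-0.41, SE 0.10) fell as well. A processed pseudogene, RPL9P25, covers 21% of the exon bases of TIPIN. TIMELESS, the partner of TIPIN, stood at 109, 117 and 118 CPM in control, 123, 96.6 and 93.2 CPM in siCLOCK and 94.2, 90.1 and 94.2 CPM in melatonin (log2 fold change -0.30, SE 0.08, edgeR adjusted p = 0.014). Within the second library set, its log2 fold change in melatonin against the library labelled siCLOCK replicate 3 was -0.01.

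The RPA genes showed the smallest differences of that role. RPA1, the largest subunit and the main DNA-binding one, fell by 0.30 (SE 0.06) and RPA3 by 0.27 (SE 0.07). RPA2 (ENSG00000117748.9, chromosome 1, 27891524 to 27914746), the subunit phosphorylated under replication stress, stood at 87.9, 97.3 and 99.1 CPM in control, 117, 96.7 and 91.8 CPM in siCLOCK and 81.5, 81.1 and 81.04 CPM in melatonin. The melatonin libraries were nearly equal and below all controls, yet RPA2 did not pass (log2 fold change -0.22, SE 0.08, edgeR adjusted p = 0.0552). It passed in 9 of 22 alternative settings, at adjusted p-values from 0.00295 (the 6 libraries alone) to 0.0492 (DESeq2), and with the set term its log2 fold change was 0.00.

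Nucleotide supply genes fell in 5 of 5 cases, where 12.1% of all genes fell, and had the lowest median of the 5 roles, -0.60. With the set term 3 of the 5 were lower (median -0.51), where 2.96% of all genes were. Within the second library set, against the library labelled siCLOCK replicate 3, the median of the nucleotide supply genes was -0.37. There the medians of origin firing genes (-0.45) and of clamp and joining genes (-0.41) were lower. TYMS (ENSG00000176890.15, chromosome 18, 657604 to 673578), thymidylate synthase, stood at 42.1, 45.99 and 43.2 CPM in control, 35.1, 43.3 and 42.8 CPM in siCLOCK and 24.7, 27.8 and 27.9 CPM in melatonin. The melatonin level was 61.3% of control (log2 fold change -0.71, SE 0.09, edgeR adjusted p = 1.65e-05). The E2F letters shown above begin 39 bases before the RefSeq start of TYMS and lie within the gene coordinates given here. The exons of TYMS share 39.1% of their bases with ENOSF1 on the other strand and 7.41% with TYMSOS. DUT (ENSG00000128951.13, chromosome 15, 48331011 to 48343373), dUTPase, which keeps uracil out of DNA, stood at 112, 118 and 121 CPM in control, 109, 102 and 101 CPM in siCLOCK and 77.7, 78.9 and 78.7 CPM in melatonin. It had the smallest p of the role and a small spread in melatonin (log2 fold change -0.58, SE 0.06, edgeR adjusted p = 3.24e-06), and 14.5% of its exon bases are shared with an antisense gene. TK1, the cytosolic thymidine kinase that recycles thymidine, stood at 91.5, 99.1 and 84.8 CPM in control, 96.7, 90.7 and 76.97 CPM in siCLOCK and 54.1, 63.5 and 63.8 CPM in melatonin (log2 fold change -0.60, SE 0.09, edgeR adjusted p = 9.05e-05).

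Of the genes for ribonucleotide reductase, which makes deoxyribonucleotides, 2 fell and 1 rose. RRM2 stood at 164, 174 and 167 CPM in control, 113, 164 and 184 CPM in siCLOCK and 106, 107 and 104 CPM in melatonin, and it fell (log2 fold change -0.67, SE 0.11, edgeR adjusted p = 0.000312). RRM1 fell by 0.35 on the log2 scale (SE 0.07), with 106, 114 and 116 CPM in control and 91.2, 84.4 and 87.6 CPM in melatonin. RRM2B, the alternative small subunit that is best known for supply outside S phase, is not among the 41 genes; it stood at 76.04, 73.9 and 88.5 CPM in control, 67.7, 79.7 and 87.7 CPM in siCLOCK and 110.3, 93.9 and 93.6 CPM in melatonin and rose (log2 fold change 0.32, SE 0.09, edgeR adjusted p = 0.0183). Counts of RRM2 per count of RRM2B were 2.16, 2.36 and 1.89 in control, 1.67, 2.05 and 2.10 in siCLOCK, and 0.959, 1.14 and 1.11 in melatonin, which was lower in each melatonin library than in any other. RRM2 shares 20.2% of its exon bases with AC007240.1, and the rise of RRM2B did not pass with the set term.

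**Figure D2:**
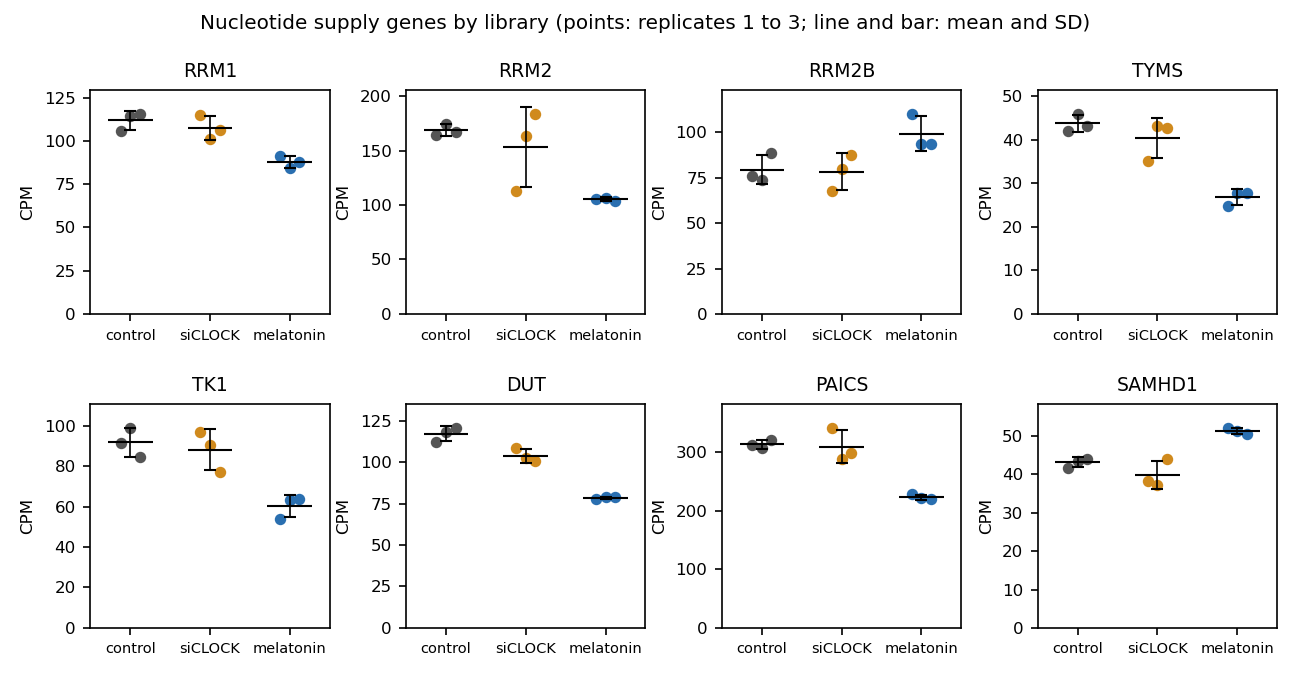
TMM-scaled CPM of 5 nucleotide supply genes of the 41 (RRM1, RRM2, TYMS, TK1, DUT) and of RRM2B, PAICS and SAMHD1 in each library; points are replicates 1 to 3 and lines with bars are the mean and SD of 3 libraries. RRM2B and SAMHD1 are higher in melatonin and the other 6 lower, and RRM2 and TYMS in siCLOCK replicate 1 stand below the other siCLOCK libraries.

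The second question was how the same genes stood in siCLOCK against control. None of the 41 genes rose or fell by edgeR's quasi-likelihood test, where 0.0669% of all genes fell and 0.0547% rose, and DESeq2 and limma-voom also called none. At an unadjusted p under 0.05 edgeR gave 2 of the 41 genes, both lower. The median log2 fold change was -0.08, from -0.22 to 0.11, with 31 genes negative and 10 positive, against 0.00 over all genes. In 5 genes all siCLOCK libraries lay below all controls, as in 5.06% of all genes, and in none did they lie above them, as in 5.75% of all genes. The 5 were POLA1, POLD3, CLSPN, ATAD5 and DUT, named here after their values were seen. DUT had the smallest p, with 112, 118 and 121 CPM in control and 109, 102 and 101 CPM in siCLOCK (log2 fold change -0.17, SE 0.06, unadjusted p = 0.0111, edgeR adjusted p = 0.4). GINS2 (log2 fold change -0.22, SE 0.09, edgeR adjusted p = 0.528) and FEN1 (-0.17, SE 0.08, edgeR adjusted p = 0.629) followed. Against control, FEN1 had -0.36 in the library labelled siCLOCK replicate 3 alone and -0.09 in siCLOCK replicates 1 and 2. In the same order GINS2 had -0.30 and -0.19, and DUT -0.22 and -0.16. A p that misses the threshold does not show that the groups were equal.

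The siCLOCK libraries differed among themselves. Relative to the control mean, the median of the 41 genes on the log2 scale was 0.04 in siCLOCK replicate 1, -0.14 in replicate 2 and -0.07 in the library labelled replicate 3, against -0.06 to 0.04 in the controls and -0.48 to -0.46 in melatonin. In replicate 1, where CLOCK was lowest, RRM2 was at 113 CPM against 164 and 184 CPM in the other siCLOCK libraries and RPA2 at 117 CPM against 96.7 and 91.8 CPM. Without that library the log2 fold change of RRM2 went from -0.13 to 0.04 and that of RPA2 from 0.10 to -0.01, none of them past the threshold. Without the library labelled siCLOCK replicate 3, also none of the 41 genes passed.

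**Figure D3:**
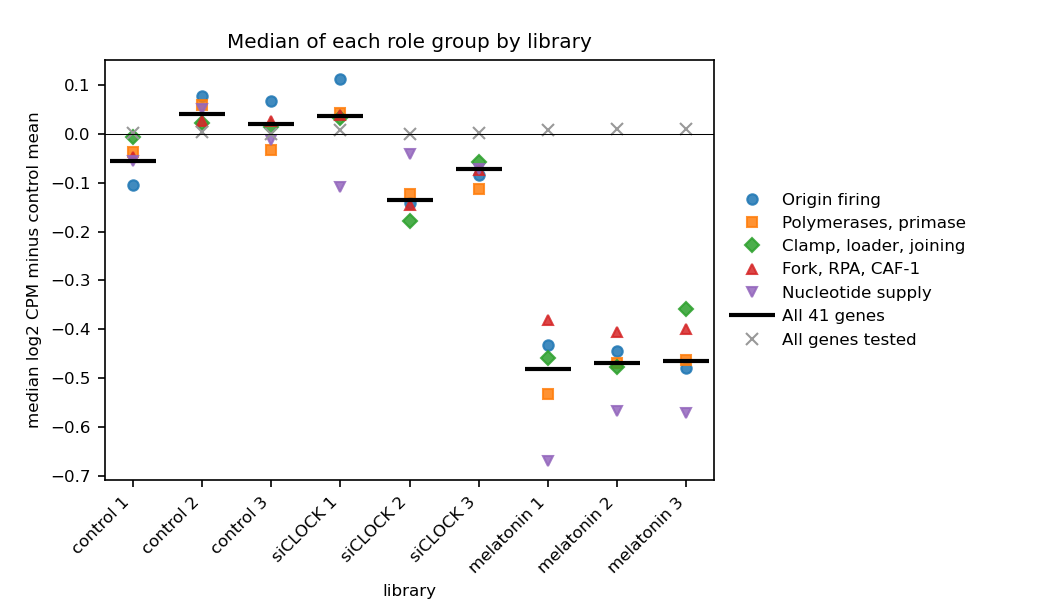
Median over the genes of each role (coloured symbols), over the 41 genes (black bars) and over all genes tested (grey crosses) of log2 CPM minus the control mean, for each of the 9 libraries. The 3 melatonin libraries have medians of the 41 genes from -0.48 to -0.46, while the control and siCLOCK libraries lie between -0.14 and 0.04.

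The third comparison set melatonin against siCLOCK. Of the 41 genes 35 were lower and none higher by edgeR's quasi-likelihood test, where 10.1% of all genes were lower and 7.43% higher, with a median of -0.40 against 0.00 over all genes. The melatonin and siCLOCK libraries did not overlap for 38 of the 41 genes, always with melatonin lower; all genes did so in 17.4% of cases with melatonin lower and in 16.8% with melatonin higher. POLA2 differed most (log2 fold change -0.71, SE 0.12, edgeR adjusted p = 0.000396), followed by POLE2 (-0.60, SE 0.10). The 6 genes that did not pass were CDC7, GINS3, POLD3, RPA3, TIMELESS and ATAD5. By role, 8 of 10 origin firing genes, 8 of 9 polymerase and primase genes, 7 of 7 clamp and joining genes, 7 of 10 fork genes and 5 of 5 nucleotide supply genes were lower. Within the second library set, where siCLOCK has only the library labelled replicate 3, the medians of these roles were, in the same order, -0.45, -0.29, -0.41, -0.29 and -0.37. RRM2 (-0.54 over all libraries, -0.81 within that set) and POLE2 (-0.60 and -0.70) were among the genes lower in both. This comparison and that with control use the same melatonin libraries.

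**Figure D4:**
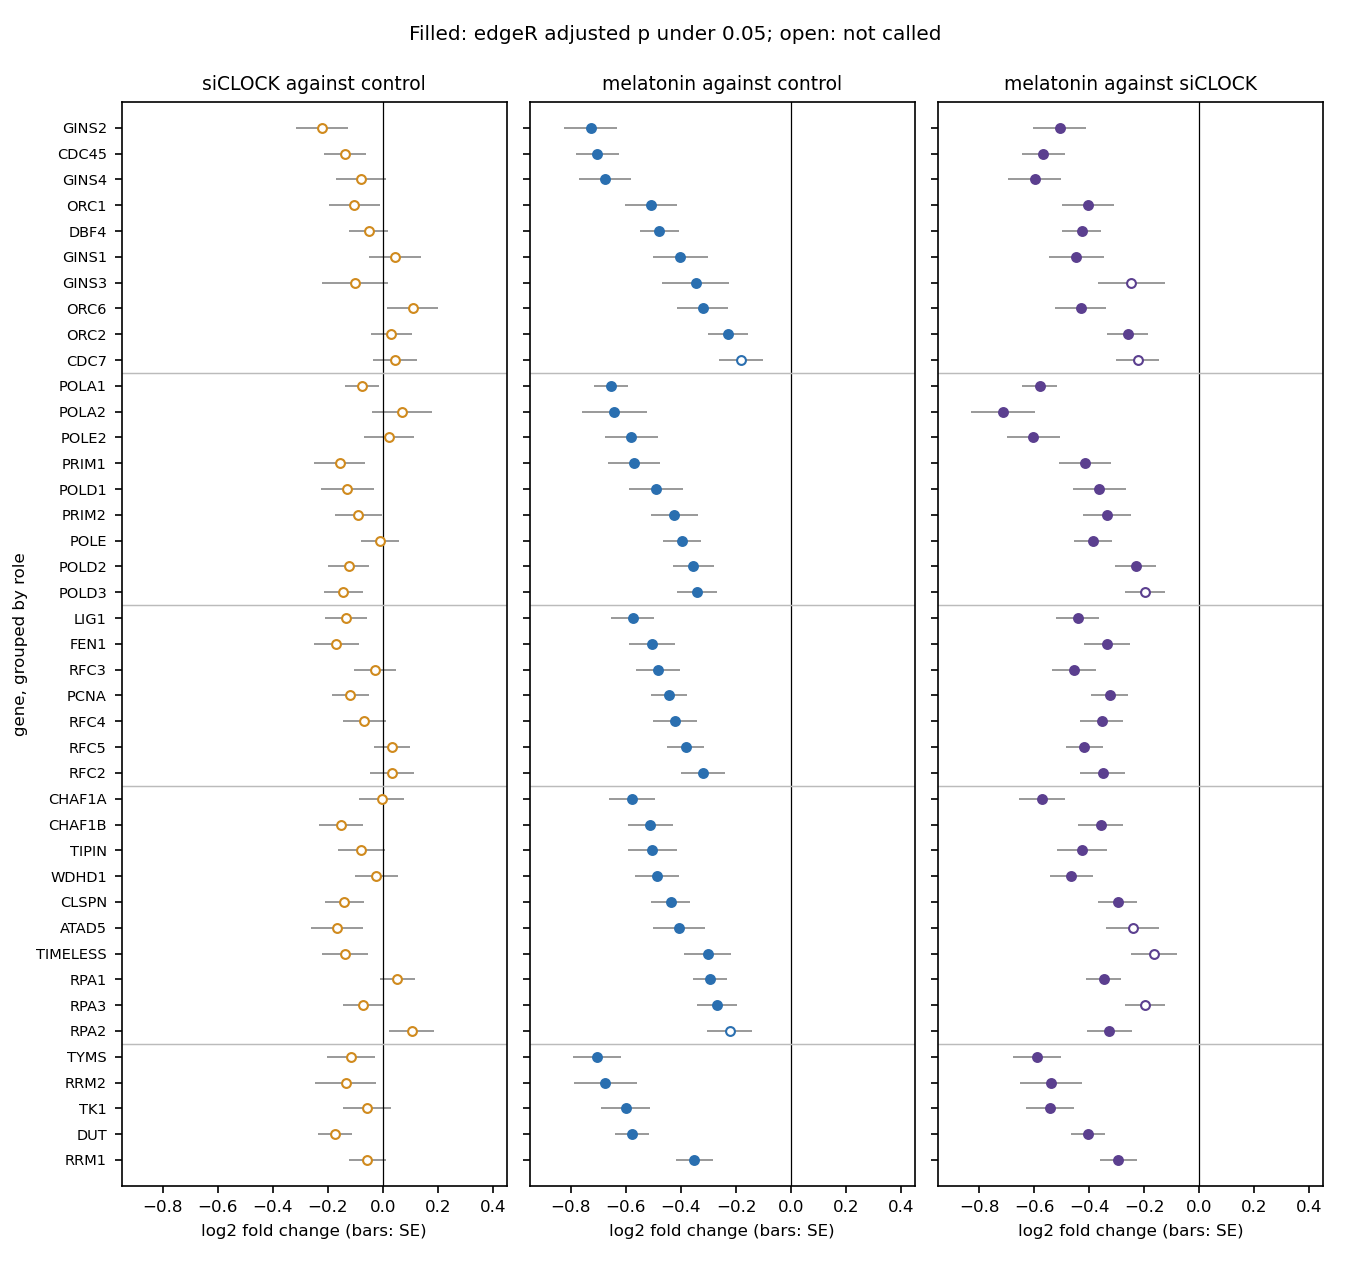
Log2 fold change with its SE for each of the 41 genes in the 3 comparisons, genes in rows grouped by role; filled points have an edgeR adjusted p under 0.05. Melatonin against control has 39 filled points, siCLOCK against control none and melatonin against siCLOCK 35.

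Genes of the same pathways outside the 41 gave calls in both directions in melatonin against control, where 12.1% of all genes fell and 11% rose. Of 10 remaining subunits of the same complexes 3 fell and 1 rose, with a median of -0.04. The 3 that fell were DBF4B, a second activator of CDC7 (log2 fold change -0.60, SE 0.07, edgeR adjusted p = 9.34e-06), the polymerase epsilon subunit POLE3 (-0.40) and RBBP4, the small CAF-1 subunit (-0.27), and the 1 that rose was RRM2B. ORC3 (-0.09), ORC4 (0.10), ORC5 (0.10), the large clamp loader subunit RFC1 (-0.13), POLD4 (0.34) and POLE4 (0.01) did not pass. Of 18 other replisome and origin factors 12 fell and none rose, with a median of -0.30. TICRR, which brings CDC45 to origins, stood at 41.5, 44.8 and 46.5 CPM in control and 27.6, 28.9 and 29.5 CPM in melatonin (log2 fold change -0.63, SE 0.08, edgeR adjusted p = 1.25e-05), and RECQL4, a helicase that acts at origins, was also lower (log2 fold change -0.53, SE 0.07, edgeR adjusted p = 3.35e-05).

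Of 16 other nucleotide supply genes 7 fell and 1 rose, with a median of -0.22. PAICS, an enzyme of purine synthesis, stood at 313, 307 and 321 CPM in control, 342, 289 and 299 CPM in siCLOCK and 229, 222 and 219.9 CPM in melatonin and fell (log2 fold change -0.49, SE 0.07, edgeR adjusted p = 3.95e-05), and SAMHD1, which degrades deoxyribonucleotides, rose (log2 fold change 0.25, SE 0.07, edgeR adjusted p = 0.0212). Specialised and mitochondrial polymerases had a median of 0.00, and 4 of 15 fell and 1 rose, where 12.1% of all genes fell and 11% rose. POLQ, the polymerase of end joining (log2 fold change -0.43, SE 0.08, edgeR adjusted p = 0.00103), POLH, the polymerase that bypasses ultraviolet damage (log2 fold change -0.34, SE 0.08, edgeR adjusted p = 0.00463), the polymerase zeta subunit MAD2L2 (-0.25) and PRIMPOL (-0.29) were lower, while POLN was higher at 2.18, 1.48 and 1.68 CPM in control and 3.78, 4.55 and 3.52 CPM in melatonin (log2 fold change 1.15, SE 0.19, edgeR adjusted p = 0.000234). With the set term, 1 of 10 remaining subunits, 7 of 18 replisome factors, 3 of 16 nucleotide supply genes and 1 of 15 specialised polymerases were lower and none was higher. Of all genes, 2.96% were lower and 1.72% higher with that term. In siCLOCK against control none of these 59 genes passed. NME1, a nucleoside diphosphate kinase gene, missed the threshold there (log2 fold change 0.35, SE 0.09, edgeR adjusted p = 0.23). It passed without the library labelled siCLOCK replicate 3 (log2 fold change 0.44, edgeR adjusted p = 0.0227), with the set term (0.0206), within the library sets (0.0196) and without the filter on low counts (0.00802).

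**Figure D5:**
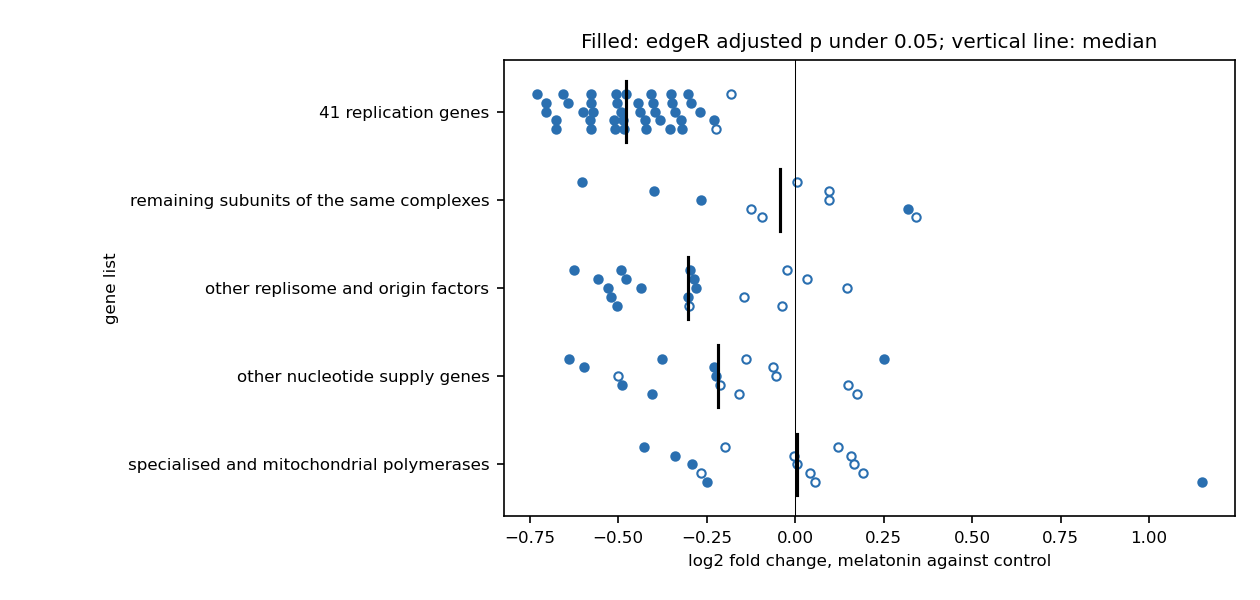
Log2 fold change of melatonin against control for the 41 genes and for the 4 other lists, 1 point per gene, filled where the edgeR adjusted p was under 0.05, with the median as a vertical line. The 41 genes all lie below 0, while the medians of the remaining subunits and of the specialised polymerases lie at -0.04 and 0.00.

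Among the 36 genes with a promoter window, the 12 with E2F letters had a median log2 fold change of -0.53 in melatonin against control, and the 24 without them -0.48. All 12 with the letters and 23 of the 24 without fell. Over all genes tested with a window, 23% of 579 genes with the letters and 13.1% of 10363 without fell. The letters were also absent from windows of genes that fell as far as TK1 and CDC45. Only the exact letters given above were searched, in a single window per gene, and any part of E2F factors was not tested.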

How the data were processed

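Total RNA of 9 H1299 libraries was sequenced as paired-end reads on a BGIseq500, per the labels' protocols. The authors deposited raw counts per gene, made with STAR 2.7.9a on GRCh38 (hg38), per the submitters' processing notes. All 58721 identifiers matched GENCODE 29, a release inferred from them, which gave symbols, coordinates and transcript lengths. The files' summary lines, among them ambiguous reads (9.77% to 10.6%), name no gene and were left out of library sizes. Strand totals differed by 1.01 to 1.05 times, so counts made without strand were used. STAR leaves reads that fall on 2 overlapping genes uncounted.

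Genes were filtered with filterByExpr (16441 tested), scaled with TMM and fitted in 1 edgeR 4.0.16 quasi-likelihood model of 9 libraries and 3 groups (R 4.3.3, biological coefficient of variation 0.0682). Two-sided p-values were adjusted by Benjamini-Hochberg over all genes tested, and a gene passed under 0.05. Levels are TMM-scaled CPM, and SE is that of the log2 fold change. Alternatives were DESeq2 1.42.0, limma-voom (limma 3.58.1), RLE, upper-quartile and library-size scaling, no filter, a replicate block, a fit of the 6 compared libraries, a filter of 5 CPM in 3 or more libraries, a library set term (divided at 1.8% unmapped reads), either strand column, protein-coding genes only, each library left out, and an adjusted p under 0.01. The fit was tested on simulated data of 16245 genes. There 8 of 16046 unchanged genes, 65.7% of those changed 1.5-fold and 89% of those changed 2-fold were called. The simulated libraries held no difference between the library sets, so these figures do not cover errors from that split. The genes and lists were chosen with earlier results of these data known. Named with values in every library are the 2 genes of each role with the smallest p in melatonin against control, genes not called there, and the 3 with the smallest p in siCLOCK. Genes with large overlaps are also named. Of other lists, the 2 with the smallest p and those called in the other direction are named. Only some of these have values in every library, and some further genes have such values too. One symbol of the lists had no match and was left out. Promoter windows are RefSeq's. Of the marker and nucleotide supply lists, 1 gene each counts in the lists but is not reported by name here.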

Additional observations from a re-analysis of the deposited data

How the results depend on the processing

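In melatonin against control, leaving out each library in turn gave 35 to 40 of the 41 genes lower, and the 13 other settings that leave the library sets aside gave 34 to 41, with medians of the 41 genes from -0.50 to -0.42. Of all genes, 8.2% to 14.6% were lower as single libraries were left out, and 6.68% to 17.5% in those other settings. With the set term 16 of the 41 genes were lower, where 2.96% of all genes were. In melatonin against siCLOCK the counts were 30 to 37 and 31 to 36, and 23 both with the set term and within the library sets, an alternative chosen after seeing the data. Of all genes, 6.18% to 12.9% were lower in melatonin against siCLOCK as single libraries were left out. The share was 5.31% to 13.4% in the 13 other settings and 3.85% with the set term. None of the 41 genes was called in siCLOCK against control, and none was called higher in any comparison, under any of these settings. In siCLOCK against control at most 0.262% of all genes were lower and 0.449% higher. GINS3 changed sign with the set term, to 0.038 against control and 0.0196 against siCLOCK, and within the sets to 0.0137. The log2 fold changes of RPA2 and RRM2 in siCLOCK against control ranged from -0.0084 to 0.17 and from -0.29 to 0.044 as single libraries were left out, with the change of sign coming without siCLOCK replicate 1. The cause was not tested. Outside the set settings, GINS1, GINS3, ORC2, ORC6, RFC2, RPA3 and TIMELESS lost their call against control in at least 1 setting, and CLSPN, FEN1, ORC2, POLD1, POLD2 and PRIM2 against siCLOCK. Scaling by library size alone moved the median of all genes to 0.07 and gave 1475 genes lower and 2586 higher in melatonin against control, in place of 1987 and 1803, with 36 of the 41 genes lower. With the set term 487 and 283 were called. The replicate block gave 38, 35 and 0 of the 41 genes lower, in melatonin against control, melatonin against siCLOCK and siCLOCK against control. Of all genes it gave 11.4%, 9.43% and 0.0487% lower. Libraries that share a number do not pair: over 9 pairs their deviations correlated between -0.0923 and 0.0629, and 1 of 9 libraries correlated best with its own number. In data simulated for melatonin against control, 65.7% of genes changed 1.5-fold were called. Neither a difference between the library sets nor changes as small as those of the 41 genes in siCLOCK were simulated.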

Other observations

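In siCLOCK replicate 1 the level of RRM2 relative to RRM1 stood below that in all other libraries, a value chosen after it was seen. Counts of RRM2 per count of RRM1 were 0.982 there, against 1.62 and 1.73 in the other siCLOCK libraries, 1.55, 1.53 and 1.44 in control and 1.16, 1.27 and 1.19 in melatonin. The nucleoside diphosphate kinase gene NME1, which balances nucleoside triphosphates, stood at 72.6, 57.97 and 52.9 CPM in siCLOCK, at 47.4, 49.9 and 46.9 CPM in control and at 40.4, 45.9 and 42.9 CPM in melatonin. CTPS1, which makes CTP, stood at 186, 147 and 152 CPM in siCLOCK, 142, 156 and 168 CPM in control and 115, 116 and 121 CPM in melatonin, and it fell in melatonin against control (log2 fold change -0.40, SE 0.08, edgeR adjusted p = 0.00176).

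Among the factors that act on chromatin and the fork, ASF1B, the histone chaperone that is tied to proliferation, fell in melatonin (log2 fold change -0.49, SE 0.08, edgeR adjusted p = 0.000199), while its paralog ASF1A had a log2 fold change of -0.15 and did not pass. The difference between the paralogs was not tested. USP1, which removes ubiquitin from PCNA, fell (log2 fold change -0.43, SE 0.07, edgeR adjusted p = 0.000356), and its partner WDR48 had a log2 fold change of 0.15 and did not pass. SLBP, which binds the stem-loop of histone mRNA, fell (log2 fold change -0.29, SE 0.06, edgeR adjusted p = 0.00208).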
